A study of Ambystoma mexicanum with 5 samples.

Results

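The genes described here are keratins and other genes known from the epidermis or other epithelia, read in connective tissue cells sorted from axolotl limb skin. They are 8 of the 99088 gene identifiers in the count table and carry 7 symbols: *KRT5*, *KRT17*, *KRT19* (on 2 identifiers), *KRT18*, *COL17A1*, *DSP* and *MUC5B*. They were selected on the difference between posterior and anterior cells in these same libraries, as genes that the study listed as differing between the positions. That difference is therefore given below as a description. Calls from the test across all identifiers are also printed for them, and are no independent evidence of it. The symbols are those of the closest known gene as the study assigned them, and the identifiers belong to the axolotl genome assembly AmexG_v6.0-DD.

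There were 3 posterior and 2 anterior libraries, each from a pool of 8 uninjured axolotls (16 lower arms, body length 12 cm). Both positions came from animals with the same pair of transgenes (made with I-SceI meganuclease, label tgSceI, line code Etnka), given 4-hydroxytamoxifen (4-OHT) as embryos. In one, the Mmu.Prrx1 limb enhancer of the mouse drives TFPnls and the inducible recombinase ERT2-Cre-ERT2 in limb connective tissue, and in the other, a Caggs cassette is switched by that recombinase from GFP to mCherry for good. Lower forelimb skin was cut into a posterior and an anterior piece with a gap between them, each piece was dissociated, and mCherry-positive cells were sorted for 3′-end RNA sequencing. The sort selects cells by this lineage label and not by a surface protein. Whether replicates shared animals is not stated, so the spread between libraries is the spread between these pools.

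Keratins are the intermediate filament proteins of epithelia, and each filament is built from type I and type II partners. The roles given here are those known from mammals. *KRT5* encodes the type II keratin of basal epidermal cells, *KRT17* and *KRT19* encode type I keratins found in skin appendages and in several epithelia, and *KRT18* encodes the type I keratin of simple epithelia. *COL17A1* encodes a transmembrane collagen of the hemidesmosome, which fixes basal cells to the basement membrane, *DSP* encodes desmoplakin, which ties keratin filaments to desmosomes between cells, and *MUC5B* encodes a secreted gel-forming mucin. Dermal connective tissue lies directly beneath the epidermis and is not known as a usual site of any of them.

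Library totals were 53927341 to 59062548 counts in posterior cells, against 44317956 and 51408176 in anterior cells. Counts were found for 27710 identifiers, and 20875 passed the filter on low counts and were tested. In the test across all of them (edgeR quasi-likelihood, false-discovery rate 0.01) 25 were higher and 28 lower in posterior cells. Connective tissue genes were found in every library, at levels that differed widely between genes. *POSTN*, encoding the matrix protein periostin, had 4540, 5092 and 4674 CPM (counts per 1000000 counts of the TMM-scaled library) in posterior cells, against 8095 and 9016 CPM in anterior cells. It was the highest of the connective tissue genes listed below. *DDR2*, from the same list, had 12.0, 14.9 and 10.6 CPM in posterior cells, against 29.3 and 27.1 CPM in anterior cells. Symbols were paired with identifiers only through the study's lists of genes differing between these positions. *PRRX1*, *COL1A1*, *TP63* and *EPCAM* have no identifier paired with them there and were not analysed here.

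All 8 identifiers passed the filter, *KRT17* only through its posterior counts and *KRT18* only through its anterior counts. Of the 8, 7 had every posterior library above both anterior libraries and 1, *KRT18*, had every posterior library below both. Over all identifiers tested, 10.5% and 13.6% were separated in these directions. Because this contrast chose the genes, nothing is read from these counts. Summed over the 8 identifiers, the level was 1162, 865 and 879 CPM in posterior cells, against 379 and 321 CPM in anterior cells. The means were 969 ± 168 (SD, n = 3) and 350 ± 41.2 CPM (SD, n = 2), a ratio of 2.77. In bulk RNA, fewer cells of a type and less RNA per cell cannot be told apart.

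**Figure D1:**
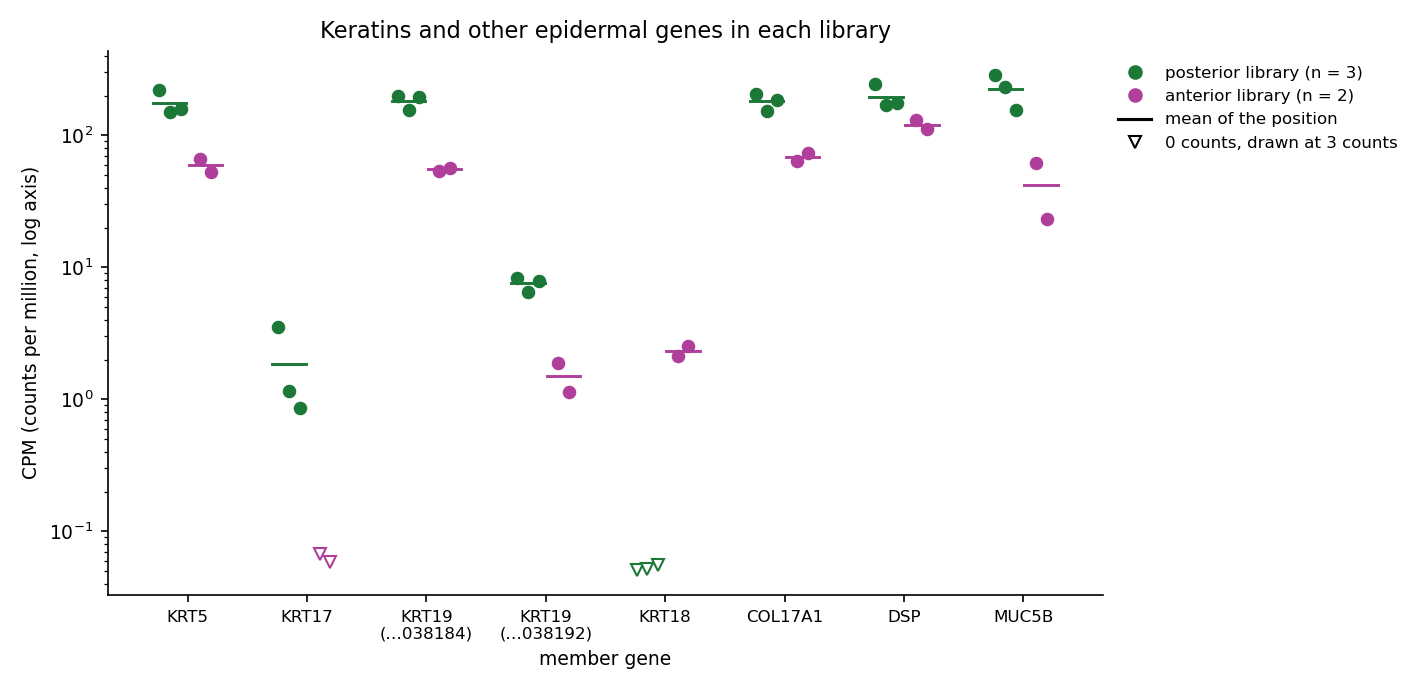
CPM of each of the 8 identifiers on a log axis, with 1 point per library, posterior libraries left of anterior libraries and bars at the group means. Open triangles mark libraries at 0, drawn at the CPM of 3 counts, and the 2 groups do not overlap for any identifier.

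*KRT5* (AMEX60DD029823) had 219, 149 and 157 CPM in posterior cells, against 66.2 and 52.6 CPM in anterior cells. The lowest posterior library lay well above the higher anterior one. The means were 175 ± 38.3 and 59.4 ± 9.68 CPM, a fold of 2.95 and a log2 fold change of 1.56 ± 0.20 (SE). It ranked 710 of the 20875 identifiers tested by level in posterior cells and 1803 in anterior cells, so a basal keratin was among the more abundant transcripts of both sorted populations.

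Of the 2 identifiers named *KRT19*, one was abundant and one was not. AMEX60DD038184 had 197, 156 and 195 CPM in posterior cells, against 53.9 and 56.6 CPM in anterior cells, a fold of 3.30 (log2 fold change 1.72 ± 0.16). Its coefficient of variation was 12.8% in posterior and 3.43% in anterior cells, the anterior value being the lowest of the members with anterior counts. AMEX60DD038192 had 8.30, 6.53 and 7.85 CPM in posterior cells, against 1.87 and 1.14 CPM in anterior cells, a fold of 5.02 (log2 fold change 2.33 ± 0.47). The groups did not overlap for either. The second carried 4.21%, 4.20% and 4.03% of the counts of the first in posterior libraries, and 3.48% and 2.01% in anterior libraries. Reads could align to as many as 5 places and how such reads were counted was not stated, so counts of near-identical keratin copies could be split between identifiers.

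*KRT17* (AMEX60DD010096) was low and was found only in posterior cells, at 3.51, 1.16 and 0.856 CPM. These came from 206, 68 and 46 counts, and both anterior libraries had 0. A count of 0 allows up to 0.0677 and 0.0584 CPM (3 counts) in these libraries, which makes *KRT17* at least 29.3-fold higher in posterior cells. The size rests on posterior replicate 1, and without that library the bound is at least 16.0-fold. These limits cover counting error of reads only and leave out the spread between pools. Whether the reads carried molecular identifiers is not stated.

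*KRT18* (AMEX60DD050768) was the one member that was lower in posterior cells. It had 0 counts in all 3 posterior libraries, where 0 allows up to 0.0508, 0.0515 and 0.0556 CPM, against 96 and 129 counts in anterior libraries. The anterior levels were 2.14 and 2.53 CPM, a difference of at least 44.4-fold by counting error alone, with the posterior libraries lower. In the RefSeq annotation *KRT18* stands beside *KRT8*, which encodes its usual type II partner, but *KRT8* has no identifier paired with it in the sources used here. *KRT17* and *KRT18*, both type I keratins, thus each had counts in 1 position alone, at a low level. Neither passed the threshold in the edgeR test (adjusted p = 0.152 and 0.105). Both were chosen on this contrast, so this is a description.

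*COL17A1* (AMEX60DD053027), the hemidesmosome collagen, had 207, 152 and 186 CPM in posterior cells, against 63.7 and 73.2 CPM in anterior cells. The means were 182 ± 27.4 and 68.4 ± 6.71 CPM, a fold of 2.66 (log2 fold change 1.41 ± 0.17). Its levels were close to those of *KRT5* at both positions.

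*DSP* (AMEX60DD038318), which encodes desmoplakin, had 243, 169 and 177 CPM in posterior cells, against 130 and 112 CPM in anterior cells. The fold was 1.62 (log2 fold change 0.70 ± 0.18), the smallest of the 8, and the lowest posterior library was 1.30 times the higher anterior one. When DESeq2 was run here, it had the highest adjusted p of the 8, at 0.00479, under the threshold of 0.01. In that run *S100A11*, from the list of other epithelial genes below, did not pass, at 0.0224, although the study had listed it. That run therefore does not give the study's selection exactly, and the study's own adjusted p-values were not used.

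*MUC5B* (AMEX60DD004446), the secreted mucin, was the most variable of the abundant members. It had 284, 230 and 155 CPM in posterior cells, against 61.5 and 23.3 CPM in anterior cells. The means were 223 ± 64.8 and 42.4 ± 27.0 CPM, a fold of 5.26 (log2 fold change 2.40 ± 0.39). Its log2 fold change was 1.86 without anterior replicate 2 and 3.26 without anterior replicate 1, so the anterior libraries set its size.

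These 3′-end libraries give about 1 read position per transcript, so levels of different genes need no length correction when set side by side. Reads split between keratin copies could still lower the level of a keratin, so the orders below are those of the counts. In posterior cells the mean levels ran in the order *MUC5B*, *DSP*, *KRT19* (AMEX60DD038184), *COL17A1* and *KRT5*. They spanned 175 to 223 CPM, a factor of 1.27, and no neighbours in that order differed beyond their spread. In anterior cells the order was *DSP*, *COL17A1*, *KRT5*, *KRT19* (AMEX60DD038184) and *MUC5B*, at 121 to 42.4 CPM, a factor of 2.85. There *DSP* stood apart from the others, with its lower library at 112 CPM above the 73.2 CPM of the highest *COL17A1* library, and the remaining neighbours overlapped or lay within their spread.

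In the test across all identifiers, edgeR called 3 of the 8 higher in posterior cells, namely *KRT5*, *KRT19* (AMEX60DD038184) and *COL17A1*, where 0.12% of all identifiers were called in this direction. It called 0 of the 8 lower in posterior cells, where 0.134% were called. The 1 member with an unadjusted p under 0.05 in that direction was *KRT18*, and 1576 of all 20875 identifiers tested had such a value in either direction. DESeq2, the tool with which the study made its selection, called 7 higher and 1 lower, with 0.734% and 0.633% of all identifiers called, and limma-voom called 4 higher and 0 lower, with 0.144% and 0.211% called. The edgeR count was 0 of 8 without posterior replicate 1, without posterior replicate 2 and without posterior replicate 3, fits in which 5, 2 and 3 of all identifiers were called. The log2 fold changes in these fits were 1.37 to 1.67 for *KRT5*, 1.67 to 1.83 for *KRT19* (AMEX60DD038184) and 1.31 to 1.52 for *COL17A1*. Without anterior replicate 2 *KRT5* also lost its call. No member changed direction in any of these fits.

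Whether the members move together from library to library was examined first by the order of the libraries within a position. Posterior replicate 1 was the highest posterior library for all 7 identifiers that were higher in posterior cells, whereas it was the highest for 33.5% of the identifiers tested. That share is over all levels, and the share at levels like those of the members was not examined. It was also the highest for 7 of the 9 abundant neighbours described below. For the members the count was 7 of 7 with TMM scaling, with library totals and with DESeq2 size factors. The 7 include both *KRT19* identifiers, whose reads could be split between them, so they are not 7 separate genes. For both, replicate 1 led replicate 3 by little, at 197 against 195 CPM (AMEX60DD038184) and 8.30 against 7.85 CPM (AMEX60DD038192). Counting error at their lowest posterior count was 1.05% and 5.12%, so the order of these 2 libraries is not settled for them. Posterior replicate 2 was the lowest posterior library for 5 of the 7, and posterior replicate 3 for *KRT17* and *MUC5B*. Between the anterior libraries there was no common order, since replicate 1 was above replicate 2 for 4 of the 6 of these identifiers with anterior counts and below it for *KRT19* (AMEX60DD038184) and *COL17A1*, as it also was for *KRT18*.

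The sizes of these departures differed between members. On the log2 scale, relative to the mean log2 level of the posterior libraries, *KRT5* was 0.34, -0.21 and -0.13 in posterior replicates 1, 2 and 3, and *DSP* was 0.33, -0.19 and -0.13. These 2 followed each other closely. *KRT19* (AMEX60DD038184) was 0.12, -0.22 and 0.10, and *COL17A1* was 0.20, -0.24 and 0.05, with replicate 3 near replicate 1 for both. *MUC5B* was 0.39, 0.09 and -0.48, with replicate 3 far below the others. Averaged over the 5 abundant members, the departures were 0.28, -0.16 and -0.12. Counting error was small beside most of them, at no more than 1.09% of the level for each of these 5 in posterior libraries. The gap between replicates 1 and 3 for *KRT19* (AMEX60DD038184) was near that size.

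**Figure D2:**
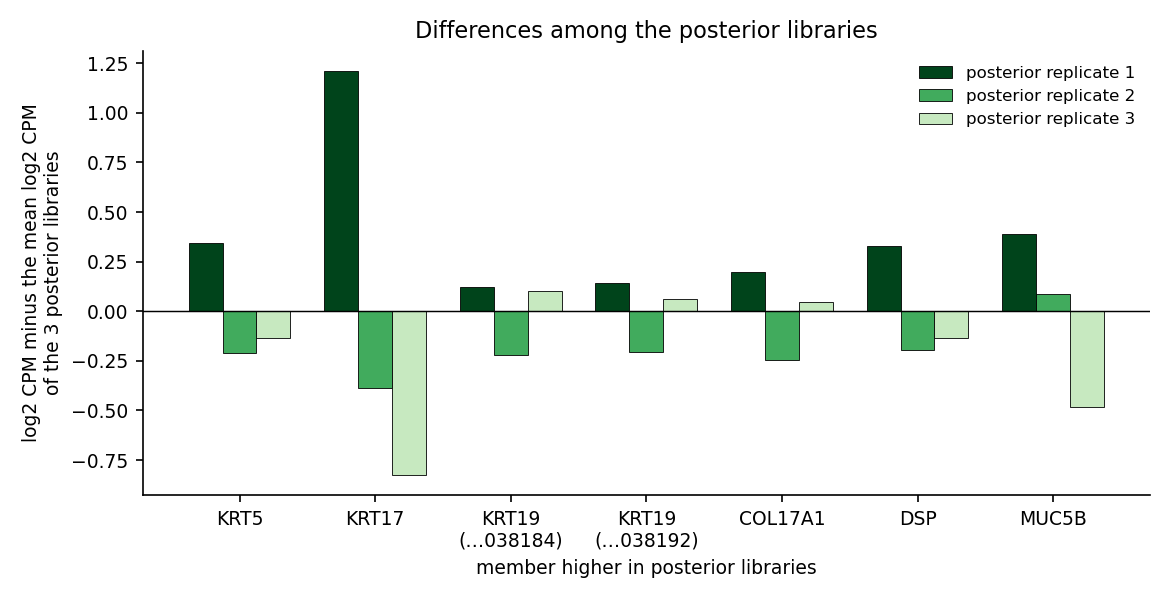
Departure of each posterior library from the posterior mean, on the log2 scale, for the 7 identifiers higher in posterior cells, with 1 bar per library and the mean taken over log2 CPM. Posterior replicate 1 is the highest for all 7, by a small margin over replicate 3 for both *KRT19* identifiers. The libraries below it differ in order between *MUC5B* and *KRT5*.

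The second measure was the ratio of each member to *KRT5* in the same library, which does not depend on library size. The *KRT19* (AMEX60DD038184) count per *KRT5* count was 0.900, 1.04 and 1.24 in posterior libraries, against 0.814 and 1.08 in anterior libraries, and that of *COL17A1* was 0.942, 1.02 and 1.18, against 0.961 and 1.39. For both the positions overlapped. Over the 5 libraries the log2 ratio had an SD of 0.24 for each.

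For *DSP* and *MUC5B* the ratios to *KRT5* were separated by position, in opposite directions. *DSP* gave 1.11, 1.13 and 1.12 counts per *KRT5* count in posterior libraries, against 1.96 and 2.13 in anterior libraries. Within posterior cells this was the tightest ratio of all, with an SD of 0.02 on the log2 scale, although the *KRT5* level itself varied between these libraries. *MUC5B* gave 1.30, 1.54 and 0.986, against 0.929 and 0.444, an SD of 0.69 over the 5 libraries, with the lowest posterior ratio close to the higher anterior one. The second *KRT19* identifier gave 0.0379, 0.0437 and 0.0499, against 0.0283 and 0.0216, again higher in posterior libraries. *KRT17* gave 0.0160, 0.00779 and 0.00544 in posterior libraries, against 0 in both anterior libraries. *KRT18* gave 0 in all 3 posterior libraries, against 0.0323 and 0.0481 in anterior libraries.

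The median SD of the log2 ratio to *KRT5* was 0.48 over the 7 other members and 0.36 over the 4 abundant ones, whereas it was 0.91 over the 7261 identifiers tested with at least 10 CPM. Over the posterior libraries alone the medians were 0.23, 0.20 and 0.36. The choice of the genes by a test between the positions favours both a shared direction and a small spread within a position, so these medians are a description. The ratio of *DSP* to *KRT5* thus differed between the positions by more than it differed within either. Whether the counts came from epidermal cells among the sorted cells or from the labelled connective tissue cells was not tested.

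**Figure D3:**
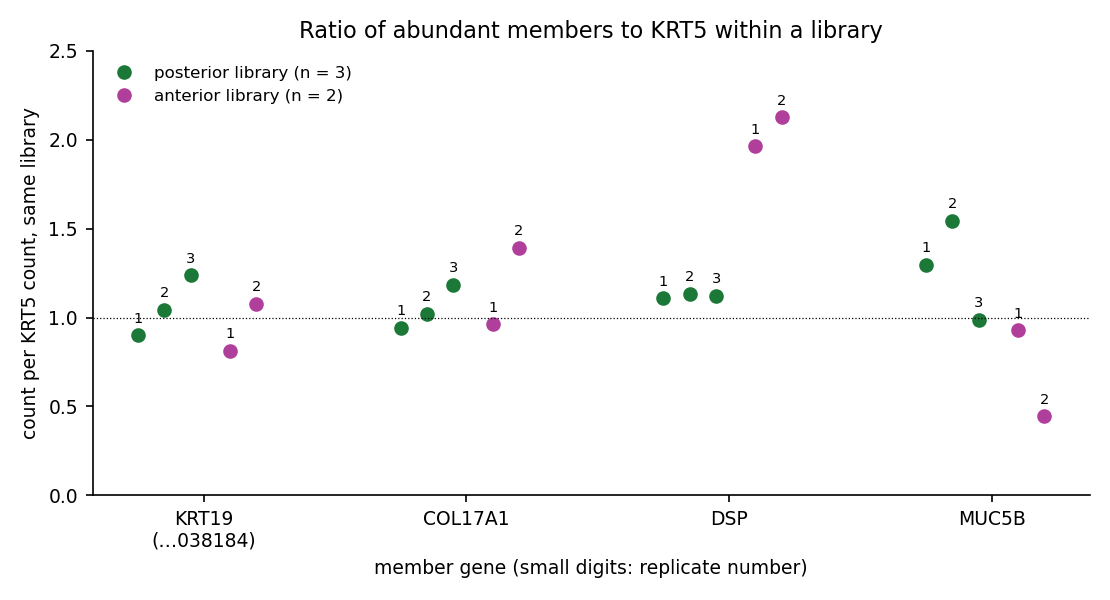
Count of each of the 4 other abundant members per *KRT5* count in the same library, with 1 point per library and posterior libraries left of anterior ones. *KRT19* and *COL17A1* overlap between positions, *DSP* lies between 1.11 and 1.13 in posterior and at 1.96 and 2.13 in anterior libraries, and *MUC5B* is higher in posterior libraries.

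A further list held 10 other genes known from epithelia, all taken from the study's own position lists and so no independent evidence of direction. Whether they mark epithelial cells in these sorted samples was not tested. In the edgeR test 2 rose in posterior cells and 0 fell, where 0.12% and 0.134% of all identifiers did. An unadjusted p under 0.05 in edgeR was found for 8 higher and 2 lower in posterior cells, and in either direction for 1576 of all 20875 identifiers tested. The choice of these genes on this contrast favours such values. DESeq2 called 7 higher and 2 lower, where 0.734% and 0.633% of all identifiers were called. With limma-voom 3 were called higher and 1 lower, where 0.144% and 0.211% were called. In all, 8 of the 10 had a log2 fold change above 0 and the median was 1.05, against -0.02 over all identifiers tested. No gene of the list was called without posterior replicate 1, without replicate 2 or without replicate 3, and without anterior replicate 1 *ANXA2* lost its call and *OCLN* was called lower. *EMP1*, encoding an epithelial membrane protein, had 61.1, 60.6 and 71.6 CPM in posterior cells, against 12.2 and 13.0 CPM in anterior cells (log2 fold change 2.36 ± 0.19). *ANXA2*, encoding the calcium-dependent membrane-binding protein annexin A2, had 428, 375 and 475 CPM, against 197 and 204 CPM (log2 fold change 1.08 ± 0.14). Both had their highest posterior level in replicate 3, as had *OCLN*, *S100A10* and *ELOVL1* of the same list. *A2ML1*, *FUT3* and *PTHLH* had it in replicate 2. Only *AHNAK* and *S100A11* had it in replicate 1, where the members that were higher in posterior cells had it.

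The genes of the list that pointed the other way include one of a cell junction. *OCLN*, which encodes the tight junction protein occludin, had 32.1, 41.1 and 54.0 CPM in posterior cells, against 94.5 and 119 CPM in anterior cells (log2 fold change -1.33 ± 0.22, not past the threshold). *PTHLH*, encoding a parathyroid hormone-like peptide, had 12.2, 16.6 and 14.3 CPM, against 39.1 and 28.0 CPM (-1.22 ± 0.24, not past the threshold).

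Markers of other cell types also differed with position. The 12 connective tissue genes summed to 9521, 10420 and 10459 CPM in posterior cells, against 13097 and 14701 CPM in anterior cells, a lower sum carried mainly by *POSTN* and *COL12A1*. Of the 12, 7 had a log2 fold change above 0 and the median was 0.70. In the edgeR test *FN1* was called higher and *POSTN* and *COL12A1* lower in posterior cells, where 0.12% and 0.134% of all identifiers were called. DESeq2, with which the study chose these genes, called 7 higher and 5 lower, where 0.734% and 0.633% of all identifiers were called. With limma-voom 2 were called higher and 2 lower, where 0.144% and 0.211% were. The edgeR calls were lost without any one of the posterior libraries, and that of *FN1* also without anterior replicate 1. The 3 immune genes *CTSS*, *ARHGDIB* and *TIMD4* summed to 203, 182 and 178 CPM in posterior cells, against 82.4 and 116 CPM in anterior cells, with 0 of 3 past the edgeR threshold, 3 at an unadjusted p under 0.05 (1576 of the 20875 identifiers tested were), 3 called by DESeq2, where 1.37% of all identifiers were, and 0 by limma-voom. None of these genes was at 0 in any library, all were listed by the study for their position, and their part in the keratin levels was not tested.

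By the SD of the log2 ratio over the 5 libraries, *KRT19* (AMEX60DD038184) and *COL17A1* ranked 2 and 3 in likeness to *KRT5* among the 7261 identifiers of at least 10 CPM, while *DSP* ranked 72 and *MUC5B* 583. This measure is low for any gene with a fold between the positions like that of *KRT5*, which is the contrast that chose these genes, so the ranks are a description. Among the 208 identifiers that carry a symbol and are not members, the 5 most like *KRT5* were *PRSS23* (AMEX60DD036862, SD 0.26), *UMOD* (0.27), *FUT3* (0.28), *ICAM5* (0.29) and a second *PRSS23* (AMEX60DD049637, 0.29). *PRSS23* encodes a secreted serine protease, *UMOD* is named for uromodulin, *FUT3* encodes a fucosyltransferase and *ICAM5* an adhesion molecule. AMEX60DD036862 had 170, 113 and 151 CPM in posterior cells, against 63.1 and 62.2 CPM in anterior cells, and *UMOD* had 143, 105 and 94.6 CPM, against 52.9 and 51.2 CPM. Both were highest in posterior replicate 1, as *KRT5* was. *FUT3*, by contrast, was nearly level within a position, at a mean of 17.8 ± 0.878 CPM in posterior cells (SD, n = 3) and 7.02 ± 0.107 CPM in anterior cells (SD, n = 2).

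Keratin genes often lie in clusters, and identifiers close in number were read as well because they were taken by number alone and not by their values. No symbol is paired with them in the sources used here except 1, *AP2A2* near *MUC5B*. That symbol comes from the study's position lists, so the study did call this neighbour. Here its log2 fold change was 0.64 ± 0.16, and its adjusted p was 0.0135 in DESeq2 and 0.199 in edgeR. Within 10 identifiers to each side of the members there were 147 others, of which 66 had counts and 48 were tested. An unadjusted p under 0.05 in the edgeR test was found for 8 of the 48, and for 1576 of all 20875 tested. After adjustment 0 of the 48 passed in edgeR, and the lowest adjusted p was 0.199. DESeq2 and limma-voom also called 0. Over all identifiers 0.254% were called by edgeR in either direction, 1.37% by DESeq2 and 0.354% by limma-voom. Without anterior replicate 1 edgeR called 1 neighbour. The log2 fold change was above 0 for 34 of the 48, with a median of 0.27, whereas it was above 0 for 10141 of all 20875 tested.

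The neighbours of *KRT5* and *KRT17* were the ones with high levels. Of the 9 neighbours with a mean of at least 100 CPM, 5 were near *KRT5*, 3 near *KRT17* and 1 near *KRT19*. Their log2 fold changes ran from -0.11 to 0.85 with a median of 0.54, and 8 of the 9 were above 0. Summed, they reached 12368, 10238 and 8636 CPM in posterior cells, against 8461 and 6668 CPM in anterior cells, a ratio of mean sums of 1.38. Posterior replicate 1 was the highest posterior library for 7 of the 9, and for 33.5% of all identifiers tested. The share among identifiers of similar level was not examined. The neighbours of *COL17A1* had a median log2 fold change of 0.03 and those of the abundant *KRT19* identifier -0.27.

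The most abundant neighbours, named after their values were seen, lay far above the members in level. AMEX60DD010103, near *KRT17* in identifier order, had 5166, 4244 and 3209 CPM in posterior cells, against 3179 and 2161 CPM in anterior cells (log2 fold change 0.66 ± 0.20, edgeR adjusted p = 0.362). AMEX60DD029819, near *KRT5* in that order, had 2300, 1687 and 1608 CPM, against 1574 and 1326 CPM (0.36 ± 0.15, edgeR adjusted p = 0.621). Neither passed the threshold. What they encode is not annotated in the sources used here. Near *KRT18*, AMEX60DD050778 had 0 counts in all 3 posterior libraries, against 40 and 42 counts in anterior libraries, and it too did not pass (adjusted p = 0.522).

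**Figure D4:**
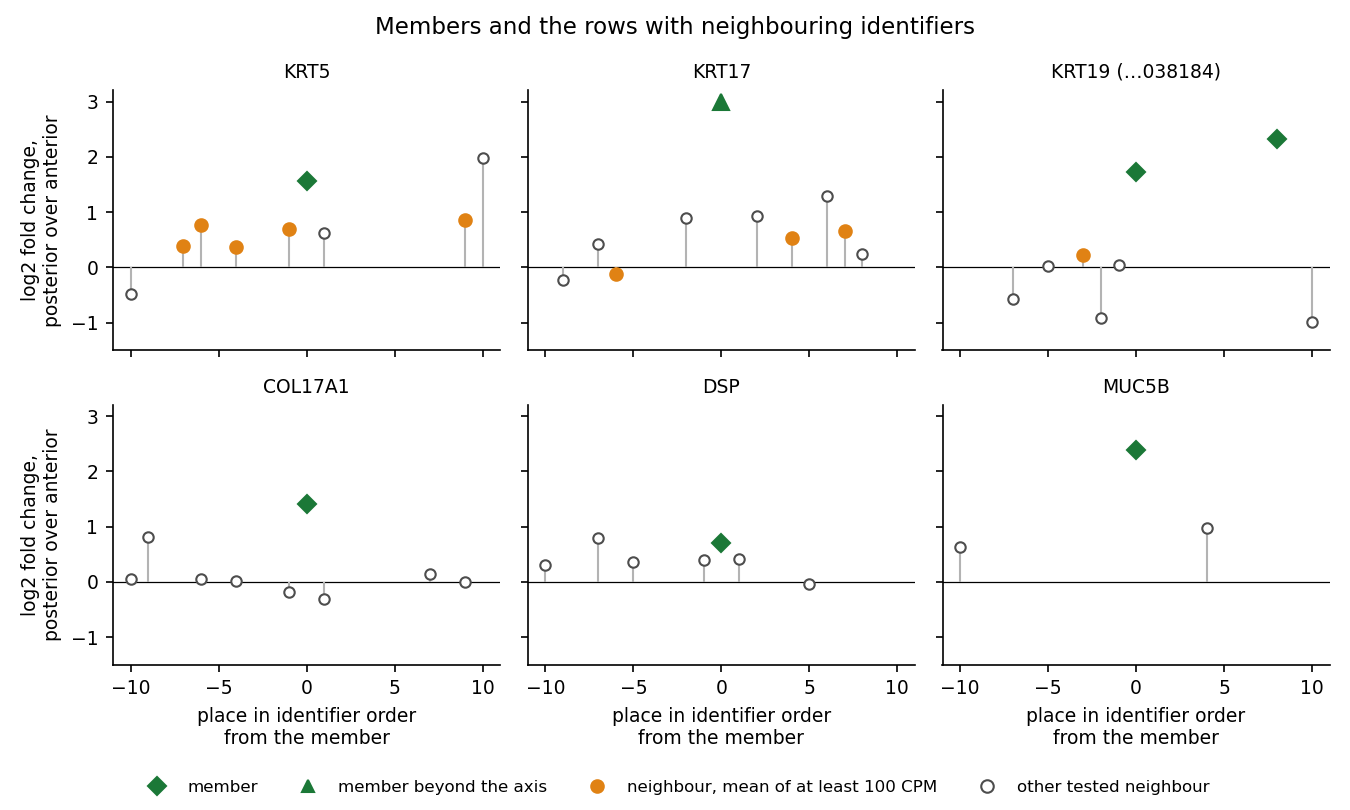
Log2 fold change, posterior over anterior, of 6 members and of the tested identifiers within 10 places to each side, by place in identifier order. Diamonds mark members, with *KRT17* drawn as a triangle at the edge of the axis. The further diamond in the *KRT19* panel, to the right of the first, is the second *KRT19* identifier. Filled circles mark neighbours of at least 100 CPM; most lie above 0 near *KRT5* and *KRT17*, and none passed the threshold.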

How the data were processed

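The authors trimmed single-end QuantSeq 3′ reads with Trimmomatic 0.39, aligned them to AmexG_v6.0-DD with HISAT2 and counted them with featureCounts. The counts used are those the authors deposited, whole reads per identifier with no normalization. How featureCounts treated strand and multiply aligned reads was not stated. The authors' 2 lists of genes that differ between anterior and posterior dermal cells gave the symbols, which 283 of their 306 identifiers carry. Symbols in the rest of their supplement were not used. The members and gene lists were drawn from these identifiers. No fold change or p-value was taken from those lists.

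The members and lists were chosen with earlier results of these data known. Genes named are the 8 members, 10 other epithelial genes, the marker lists (connective tissue, immune, nerve and glia, vessel), and the 5 named identifiers most like *KRT5*, of at least 10 CPM. Unnamed identifiers are given as counts, with a few exceptions named after their values were seen.

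Counts were fitted in R 4.3.3 with edgeR 4.0.16 (filterByExpr, TMM, quasi-likelihood test, Benjamini-Hochberg adjustment, threshold 0.01). CPM are TMM-scaled. DESeq2 1.42.0, limma 3.58.1 (voom), other scalings and filters, a robust fit, a replicate block, a threshold of 0.05, ratios to *COL17A1* and leaving out each library were alternatives. Ratios used a pseudocount of 0.5 for the SD on the log2 scale. The scripts were tested on simulated data. Folds against a group at 0 use a floor of 3 counts per library.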

Additional observations from a re-analysis of the deposited data

How the results depend on the processing

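No member changed direction under any alternative run. Over all identifiers, 53 were called, against 298 with DESeq2, 337 with no filter, 103 with a robust fit, 130 with the replicate block, 127 at a threshold of 0.05 and 2 to 62 with 1 library left out. Of the members 3 were called higher in posterior cells, against 7 with DESeq2, 6 with no filter and 0 to 4 with 1 library left out. The number called lower was 0, against 1 with DESeq2 and 1 with no filter. Of the other epithelial genes 2 were called, against 9 with DESeq2, 4 with limma-voom, 9 with no filter, 5 with a robust fit, 4 with the replicate block, 5 at a threshold of 0.05 and 0 to 2 with 1 library left out. Of the neighbouring identifiers 0 were called, against 5 with no filter, 2 with the replicate block and 0 to 1 with 1 library left out. The median SD of the log2 ratios was 0.48, against 0.62 with ratios to *COL17A1* and 0.35 to 0.55 with 1 library left out, the lowest without anterior replicate 2. The summed level ratio of 2.77 stayed within 2.49 to 3.02. The cause of these differences was not tested. Whether the replicate numbers pair the samples is not stated. The difference of replicates 1 and 2 in posterior cells had a correlation of -0.02 with that in anterior cells over the 20875 identifiers tested. This value cannot decide whether pools shared animals, since noise in single libraries also brings it near 0.

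With an anterior library left out, 1 remains and is assumed to vary like the others. *KRT17*, *KRT18* and the second *KRT19* identifier rest on few counts, and the precision of every posterior value on 3 pools and of every anterior value on 2.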

Other observations

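The remaining marker lists differed little in sum, while their genes pointed both ways. The 3 nerve and glia genes summed to 79.3, 83.2 and 87.7 CPM in posterior cells, against 83.2 and 90.7 CPM in anterior cells. Within that list *NGFR*, a neurotrophin receptor, had 23.6, 20.9 and 16.1 CPM in posterior cells, against 44.7 and 42.5 CPM in anterior cells. *EDNRB* changed the most of the 3, with a log2 fold change of -2.86 ± 0.56. Its means were 1.81 ± 1.31 CPM in posterior cells (SD, n = 3) and 13.2 ± 1.03 CPM in anterior cells (SD, n = 2). *UCHL1*, a ubiquitin hydrolase of neurons, had 54.9, 59.0 and 70.2 CPM, against 24.6 and 35.8 CPM. It was the most abundant of the 3 in posterior cells. Of the 3, 1 had a log2 fold change above 0 and 2 below, and the median was -1.11. The 2 vessel genes *RGS5* and *ARHGEF15* summed to 43.6, 37.6 and 45.4 CPM in posterior cells, against 51.0 and 38.1 CPM in anterior cells. In edgeR 0 of these genes passed the threshold, while each had an unadjusted p under 0.05, as had 1576 of all 20875 identifiers tested. DESeq2 called 2 higher and 3 lower in posterior cells, where 0.734% and 0.633% of all identifiers were called, and limma-voom called 0. The study chose all of them for their position on these samples.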
